A study of Mus musculus with 6 samples.

Results

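The DNA replication and cell division program was followed as 40 genes, 19 that act in S phase and 21 that act in mitosis, among the 53421 genes of a count table from cultured mouse cerebellar granule cells (GCs). The genes were chosen by name and the classes were kept apart, and each name matched a single Ensembl gene of the GRCm38 annotation. Bulk RNA-seq compared GCs infected with a lentivirus carrying a hairpin against Ythdf2 (shYthdf2, hairpin number 3), which encodes a reader of the mRNA modification m6A, with GCs infected with a control hairpin (shCtrl), 3 libraries in each group. The GCs came from WT C57BL/6 pups at postnatal day 8, both groups were kept in Neurobasal medium with B27 supplement, and the study describes puromycin selection of such infected cultures, so both groups share infection and, where it was applied, selection. A single hairpin represents the knockdown, and it lowers rather than removes YTHDF2.

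The labels gave the groups in opposite ways, and this bears on every direction below. The library names put 3 libraries under knockdown with hairpin 3 and 3 under knockdown control, and these were followed, whereas the titles and genotype entries call the first 3 wild type and the last 3 knockdown. Should the titles be right, every direction given here would invert. Ythdf2 itself had 500, 401 and 500 normalized counts in replicates 1, 2 and 4 of shYthdf2 and 617, 839 and 627 in those of shCtrl, 67.3% of the shCtrl mean with no overlap between the groups (log2 fold change −0.57, SE 0.16, unadjusted p = 0.00938, adjusted p = 0.125 by edgeR). Each library held between 17246821 and 21546595 counts. Both replicate 2 libraries stood apart: counts of replicates 1 and 4 of one group differed by a chi-square per degree of freedom of 3.35 in shYthdf2 and 4.66 in shCtrl, and those of replicate 2 differed from them by 33.0 to 54.9. Normalized counts are the deposited read counts after scaling for library size and composition, and a log2 fold change is shYthdf2 over shCtrl throughout.

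A cell that divides first loads the MCM helicase onto replication origins with the help of Cdc6 and Cdt1, fires the origins with Cdc45 and the GINS complex, and copies its DNA on the sliding clamp PCNA. E2F transcription factors switch on these genes at the border of G1 and S phase through E2F sites in their promoters, while the mitotic genes come on later, largely through a promoter element named the cell cycle genes homology region (CHR) that often lies near CCAAT boxes. Granule neurons arise from progenitors that divide in the outer layer of the young cerebellum, and they leave the cell cycle as they differentiate. In bulk RNA, fewer cells of a type and less RNA per cell cannot be told apart.

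The 2 classes differed in the elements their promoters carry. RefSeq promoter windows on GRCm38.p6, each running from 250 bases before to 50 bases after a gene start, were given for 15 of the 19 S phase genes and 17 of the 21 mitotic genes, 32 of the 40 in all. An E2F motif, spelled here as TTTCCCGC or TTTCGCGC or TTTGCCGC or TTTGGCGC on either strand, was in a window of 7 of the 15 S phase genes and 1 of the 17 mitotic genes, against 2.27% of all 32851 windows. The CHR motif TTTGAA on either strand was in a window of 2 of the 15 S phase genes and 12 of the 17 mitotic genes, against 17.9% of all windows. CCAAT on either strand was in 10 of the 15 and 15 of the 17, against 37.4% of all windows. Such matches are descriptions of the letters and not of binding.

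**Figure D1:**
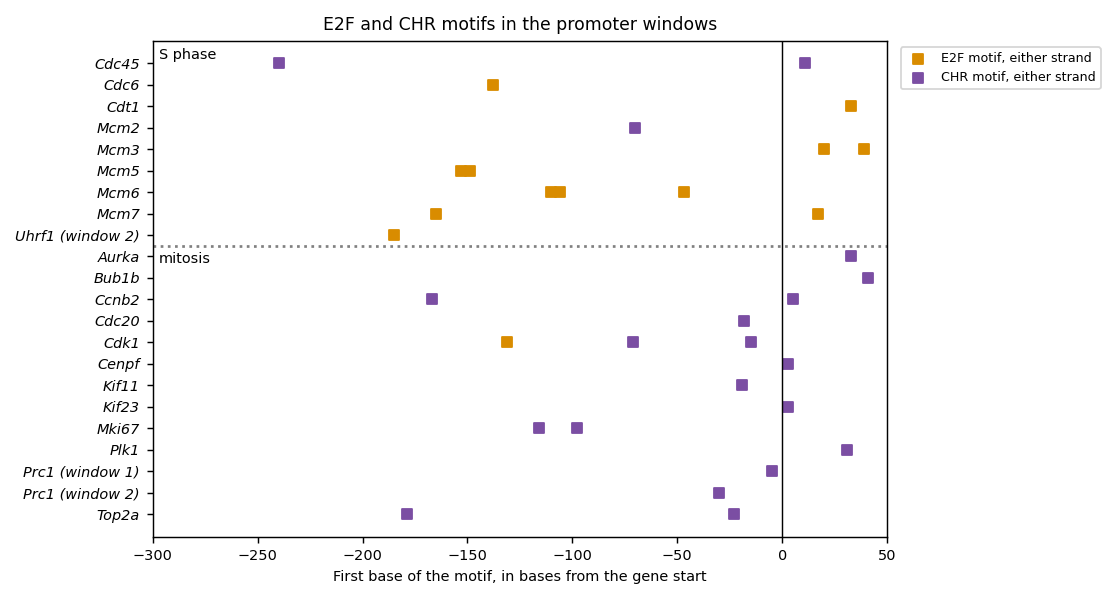
Position of the first base of each E2F motif (orange) and CHR motif (purple) in the promoter windows of the genes that hold one, in bases from the gene start (vertical line), with S phase genes above the dotted line and mitotic genes below it. E2F motifs were in the windows of 7 S phase genes and of 1 mitotic gene, Cdk1, and CHR motifs in those of 12 mitotic genes.

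The bases upstream of the start are shown for 3 genes of each class, so that promoters of both classes can be read side by side. They are those with the smallest unadjusted p among genes whose window holds either element, and were not picked as examples of a type. They are written 5′ to 3′ on the strand of the gene, in lower case, with E2F, CHR and CCAAT letters of either strand in capitals. The bases before the start were those of Uhrf1 at chr17:56304063-56304312 (plus strand), Mcm6 at chr1:128359706-128359955 (minus strand), Mcm2 at chr6:88898781-88899030 (minus strand) for S phase, and of Cenpf at chr1:189688087-189688336 (minus strand), Mki67 at chr7:135716380-135716629 (minus strand), Kif23 at chr9:61946800-61947049 (minus strand) for mitosis (GRCm38.p6).
Uhrf1: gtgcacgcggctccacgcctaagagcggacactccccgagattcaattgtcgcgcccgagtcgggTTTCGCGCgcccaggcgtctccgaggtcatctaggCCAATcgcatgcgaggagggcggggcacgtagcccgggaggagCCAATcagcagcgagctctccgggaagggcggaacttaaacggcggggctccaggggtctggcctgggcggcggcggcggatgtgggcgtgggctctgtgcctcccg
Mcm6: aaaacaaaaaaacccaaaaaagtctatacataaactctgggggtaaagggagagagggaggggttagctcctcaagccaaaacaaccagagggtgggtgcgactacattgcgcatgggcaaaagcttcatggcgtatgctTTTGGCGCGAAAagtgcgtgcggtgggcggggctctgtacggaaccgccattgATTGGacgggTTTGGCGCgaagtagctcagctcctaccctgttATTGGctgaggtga
Mcm2: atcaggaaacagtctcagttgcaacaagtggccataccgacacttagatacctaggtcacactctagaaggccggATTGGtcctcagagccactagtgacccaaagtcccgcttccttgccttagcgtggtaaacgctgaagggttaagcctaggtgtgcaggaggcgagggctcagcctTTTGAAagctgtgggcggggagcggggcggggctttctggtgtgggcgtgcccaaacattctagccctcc
Cenpf: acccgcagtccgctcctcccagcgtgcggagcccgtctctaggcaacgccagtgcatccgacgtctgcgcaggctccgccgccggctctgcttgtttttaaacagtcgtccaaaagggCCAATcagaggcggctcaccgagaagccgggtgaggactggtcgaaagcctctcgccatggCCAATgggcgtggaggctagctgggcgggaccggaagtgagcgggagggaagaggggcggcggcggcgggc
Mki67: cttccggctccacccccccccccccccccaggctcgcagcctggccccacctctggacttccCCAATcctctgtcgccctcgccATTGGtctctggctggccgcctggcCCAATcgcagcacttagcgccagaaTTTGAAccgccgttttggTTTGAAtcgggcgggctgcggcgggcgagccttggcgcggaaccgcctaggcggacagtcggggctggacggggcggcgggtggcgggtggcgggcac
Kif23: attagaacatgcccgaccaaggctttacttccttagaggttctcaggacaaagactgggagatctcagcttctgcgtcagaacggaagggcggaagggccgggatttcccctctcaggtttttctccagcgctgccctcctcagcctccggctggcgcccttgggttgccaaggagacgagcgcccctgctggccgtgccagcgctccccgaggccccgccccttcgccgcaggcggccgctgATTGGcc

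Among the S phase genes shown, E2F letters of Mcm6 began at positions −110 and −47 from the start on its own strand, and a match on the other strand began at −106 and overlapped the first. Uhrf1 had a single E2F match, at −185 in the window of the second of its listed starts. Mcm2 carried a CHR match at −70 and no E2F match. Among the mitotic genes shown, Mki67 had a pair of CHR matches at −116 and −98, downstream of 3 CCAAT boxes. The CHR of Cenpf and of Kif23 began at base 3 from the listed RefSeq start, outside the bases printed above. The Kif23 gene of the annotation begins further downstream, at chr9:61946774, so its CHR lies before that gene. Each CHR is shown in a run of 22 bases with the motif in capitals.
Cenpf CHR, chr1:189688071-189688092 (minus strand): gcgggcagTTTGAAtcgctcgt
Kif23 CHR, chr9:61946784-61946805 (minus strand): ttggcctgTTTGAAatgcgccg

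Mitotic transcripts were scarce in these cultures, and S phase transcripts less so. Per kilobase of exon, the mean over the 6 libraries had a median of 7.61 normalized counts for the 21 mitotic genes, 35.0 for the 19 S phase genes and 83.0 for all genes tested. All 21 mitotic genes and 15 of the 19 S phase genes lay below that last value, and 10.7% of the tested genes lay below the mitotic median. The highest of the S phase genes were Pcna at 258, E2f1 at 205 and Mcm7 at 203 normalized counts per kilobase, and the lowest was the licensing factor Cdc6 at 3.21. The highest mitotic genes were Ccnb2, a B-type cyclin that activates Cdk1, at 39.6 and Prc1, which bundles microtubules of the spindle midzone, at 21.2. Mki67, the Ki-67 antigen used to stain dividing cells, reached 4.23 and the spindle motor Kif11 0.398. The markers of differentiated granule cells had a median of 1514 on the same scale, so the markers of the labelled cell type were present in these libraries.

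**Figure D2:**
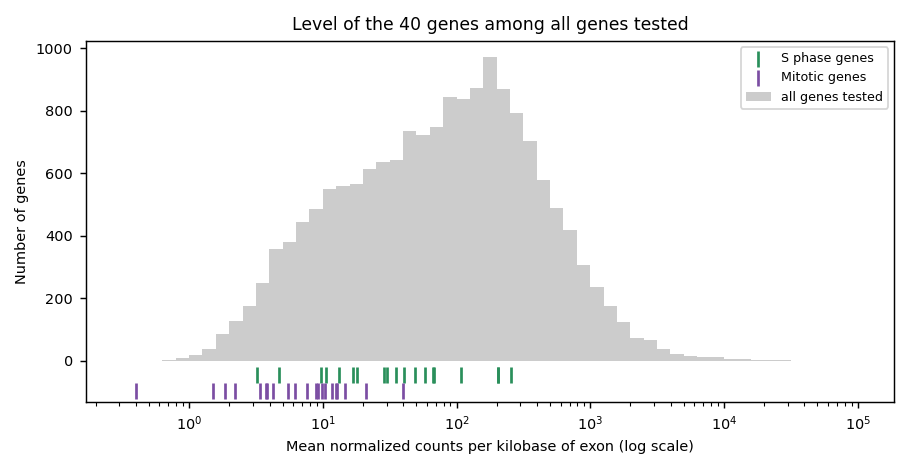
Histogram of the mean normalized counts per kilobase of exon of all genes tested (grey, log axis), with each S phase gene (green) and each mitotic gene (purple) as a tick below it. The S phase genes reach from 3.21 to 258 and the mitotic genes from 0.398 to 39.6, with medians of 35.0 and 7.61.

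No gene of either class passed the test in edgeR. All 19 S phase genes passed the filter on low counts and 19 of the 21 mitotic genes did, the cyclin Ccnb1 and Kif11 being removed. Of the 38 genes tested, edgeR called 0 at an adjusted p under 0.05, where it called 0.604% of the 17214 genes tested. DESeq2 called 0 S phase genes and 1 mitotic gene, Cenpf, where it called 7.67% of all genes. The limma-voom fit called 0 of either class, where it called only 24 of the 17214 genes. At an unadjusted p under 0.05, 1 of 19 S phase genes and 3 of 19 mitotic genes were higher in shYthdf2, against 9.5% of all genes tested, and 0 of either class were lower, against 10.6%. One of the 3, Bub1, reached the filter in the shYthdf2 libraries alone, which favors a higher call, and the 18 other mitotic genes had a median log2 fold change of 0.48. Of these 18, Aurkb had 12, 6 and 7 raw counts in shCtrl, Cenpe 8, 13 and 8, and Birc5 4, 19 and 4. Their shYthdf2 libraries carried them past the filter, so the median of 0.48 is not free of this effect. The 3 shYthdf2 libraries all lay above the 3 shCtrl libraries for 2 S phase and 5 mitotic genes, against 12.6% of all genes, and all below them for 2 S phase and 0 mitotic genes, against 13.4%. Bub1 and Aurkb are among those 5 mitotic genes. The median log2 fold change was −0.05 over the S phase genes, 0.49 over the 19 tested mitotic genes and 0.01 over all genes tested. Over the 14 mitotic genes with at least 10 counts in every library, a limit that removes Bub1, Birc5 and other low genes, the median was 0.14. By sign alone, 7 S phase genes were higher and 12 lower, and 16 mitotic genes were higher and 3 lower.

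**Figure D3:**
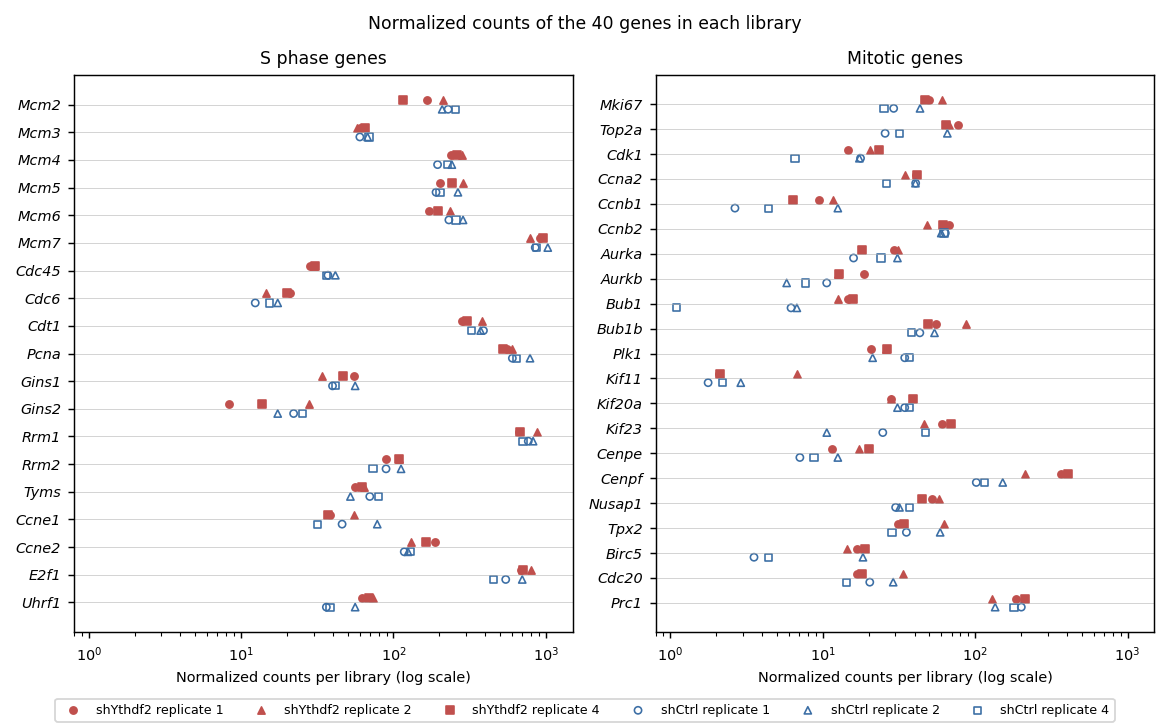
Normalized counts on a log axis for each of the 40 genes in the 6 libraries, with shYthdf2 in filled red and shCtrl in open blue symbols, and replicates 1, 2 and 4 as circles, triangles and squares. Most genes overlap between groups, Cenpf stands clear of shCtrl at 212 to 405 against 102 to 152, and most mitotic genes lie under 100 normalized counts.

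Among the S phase genes, no subunit of the replicative helicase passed the test with all 6 libraries. Mcm2, a subunit of the MCM helicase, had 167, 213 and 115 normalized counts in shYthdf2 replicates 1, 2 and 4 and 228, 209 and 256 in shCtrl. Its groups overlapped through replicate 2, and the log2 fold change of −0.48 (SE 0.24) did not pass (unadjusted p = 0.0789, adjusted p = 0.304, edgeR). Mcm6, another subunit of the same ring, had 172, 235 and 195 against 231, 286 and 257. Here a single shYthdf2 library, replicate 2, overlapped shCtrl, and the log2 fold change was −0.36 (SE 0.17, adjusted p = 0.293). The other ring subunits Mcm3, Mcm4, Mcm5 and Mcm7 had log2 fold changes of −0.10, 0.24, 0.15 and −0.05, with adjusted p from 0.417 to 0.859, and all overlapped. The subunits of the ring thus differed in sign, 4 lower and 2 higher. With both replicate 2 libraries left out, Mcm2 (−0.78, adjusted p = 0.000608) and Mcm6 (−0.41, adjusted p = 0.00937) passed and were lower, in a fit where 52.7% of all genes passed. Without shYthdf2 replicate 4 alone, Mcm2 was at −0.28.

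Of the factors that load and fire the helicase, Cdc45 was the one whose groups did not overlap. It had 28.2, 30.0 and 30.7 normalized counts in shYthdf2 and 37.2, 41.5 and 36.2 in shCtrl, a log2 fold change of −0.37 (SE 0.24, adjusted p = 0.434). Its exons share 209 bases with those of Ufd1 on the other strand, which had up to 1942 counts, and the strand setting of the counting is not given in the sources used here. Cdt1 had a log2 fold change of −0.18, Cdc6 of 0.30, and the GINS subunits Gins1 and Gins2 of −0.02 and −0.35, all overlapping. Gins2 ranged from 8.34 to 28.0 within shYthdf2 and shares 2758 exon bases with Gse1 on the other strand, which had up to 2404 counts.

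Pcna, the sliding clamp that holds the polymerases on DNA, was lower without overlap. It had 557, 602 and 520 normalized counts in shYthdf2 and 603, 786 and 641 in shCtrl, 82.7% of the shCtrl mean. The closest libraries, shYthdf2 replicate 2 and shCtrl replicate 1, were almost equal, and the log2 fold change of −0.27 (SE 0.14) had an adjusted p of 0.312 by edgeR and was −0.15 without shCtrl replicate 2. The enzymes that supply DNA precursors differed less: Rrm1 and Rrm2, the subunits of ribonucleotide reductase, had log2 fold changes of −0.05 and 0.16, and Tyms, which makes thymidylate, of −0.14, and all overlapped.

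Of the remaining S phase genes, E2f1, Uhrf1 and Ccne2 had positive fold changes and Ccne1 a negative one. E2f1, the transcription factor that drives the G1 to S transition, had 682, 794 and 706 normalized counts in shYthdf2 and 545, 700 and 453 in shCtrl. Only shCtrl replicate 2 reached into the shYthdf2 range, and the log2 fold change was 0.36 (SE 0.17, unadjusted p = 0.0701, adjusted p = 0.289, edgeR), with 0.54 without shCtrl replicate 2 and 0.22 without shCtrl replicate 4. Uhrf1, which brings the maintenance DNA methyltransferase to newly copied DNA, had 62.6, 73.5 and 68.8 against 36.3, 56.0 and 38.4. Its groups did not overlap, and it was the S phase gene with the smallest p, 1.57-fold higher at a log2 fold change of 0.65 (SE 0.26, unadjusted p = 0.0379, adjusted p = 0.22). Ccne2, a cyclin E that activates Cdk2, was also separate, at 131 to 187 against 118 to 129, with a log2 fold change of 0.37 (SE 0.19, adjusted p = 0.321), and it shares 609 exon bases with Ints8 on the other strand, at up to 772 counts. The other cyclin E, Ccne1, ranged from 37.1 to 55.1 against 31.8 to 78.3, with a log2 fold change of −0.26.

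The mitotic gene that differed most clearly was Cenpf, a kinetochore and nuclear envelope protein that accumulates late in the cell cycle. It had 366, 212 and 405 normalized counts in shYthdf2 and 102, 152 and 115 in shCtrl. The groups were far apart in replicates 1 and 4 and closer in replicate 2, with log2 ratios within replicates of 1.84, 0.48 and 1.81 in the order 1, 2 and 4. The mean was 2.67-fold higher, with a log2 fold change of 1.41 (SE 0.28) that missed the threshold in edgeR (unadjusted p = 0.00126, adjusted p = 0.0651). Its call turned on the fit: Cenpf passed in DESeq2 (adjusted p = 0.000182), with no filter on low counts (adjusted p = 0.011), without replicate 2 of shCtrl (0.0168) or of shYthdf2 (0.0263), and with a batch term for replicate 2 (0.0237), and over all 15 alternatives its log2 fold change ran from 1.23 to 1.83 and its adjusted p from 6.38e-09 to 0.303.

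Other kinetochore and checkpoint genes were at low counts. Bub1, a kinase of the spindle checkpoint, had 14.6, 12.6 and 15.9 normalized counts in shYthdf2 and 6.19, 6.76 and 1.10 in shCtrl. The groups did not overlap, and the mean was 3.06-fold higher (log2 fold change 1.55, SE 0.54, unadjusted p = 0.0217, adjusted p = 0.171, edgeR), although the highest shCtrl library was under 7 normalized counts. Its relative Bub1b had 55.3, 87.0 and 48.7 against 43.4, 54.1 and 38.4, which overlapped (log2 fold change 0.49, SE 0.30). Cenpe, a kinetochore motor, had 11.5 to 20.1 against 7.08 to 12.6 and a log2 fold change of 0.78 (SE 0.40, adjusted p = 0.318). Cdc20, which activates the anaphase-promoting complex, differed least of these, at 16.7 to 33.8 against 14.2 to 29.0 and a log2 fold change of 0.11.

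Among genes of chromosome structure and the spindle, Nusap1 was the third with an unadjusted p under 0.05. This microtubule-bundling protein had 52.1, 58.0 and 44.5 normalized counts in shYthdf2 and 30.1, 31.9 and 37.3 in shCtrl, with no overlap (log2 fold change 0.64, SE 0.25, unadjusted p = 0.0335, adjusted p = 0.207, edgeR). Mki67, whose product coats mitotic chromosomes, had 50.1, 60.9 and 46.6 against 29.2, 43.5 and 25.2. It was separate by a narrow margin, between shYthdf2 replicate 4 and shCtrl replicate 2, at a log2 fold change of 0.68 (SE 0.29, unadjusted p = 0.0507, adjusted p = 0.25). Top2a, the topoisomerase that untangles sister chromatids, had 77.2, 67.7 and 64.6 against 25.7, 65.7 and 31.8. Replicate 2 of shCtrl was at the shYthdf2 level and the other 2 shCtrl libraries were lower, for a log2 fold change of 0.76 (SE 0.37, adjusted p = 0.30), which was 1.28 without shCtrl replicate 2 and 0.51 without shCtrl replicate 1.

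The motors and bundlers of the late spindle differed among themselves. Kif23, a kinesin of the central spindle, had 60.5, 46.4 and 69.9 normalized counts in shYthdf2 and 24.8, 10.6 and 47.1 in shCtrl, which overlapped by less than 1 normalized count (log2 fold change 1.11, SE 0.49, unadjusted p = 0.0563, adjusted p = 0.26, edgeR). Its log2 fold change was 1.71 without shCtrl replicate 4 and 0.72 without shCtrl replicate 2. Prc1, its partner in the midzone, had 186, 129 and 214 against 201, 135 and 180 and a log2 fold change of 0.03 (SE 0.24). In Prc1 replicate 2 was the lowest library of each group, and 911 of its exon bases are shared with Rccd1 on the other strand. Kif20a, a kinesin of the same stage, had 28.0 to 39.2 against 30.9 to 37.3 and a log2 fold change of −0.11, with 1271 exon bases shared with Cdc23. Tpx2, which promotes spindle assembly, had a log2 fold change of 0.06, with both replicate 2 libraries high at 62.9 and 58.9. Kif11, the motor that pushes spindle poles apart, had 2, 7 and 2 raw counts in shYthdf2 and 2, 3 and 2 in shCtrl and was not tested.

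The kinases and cyclins that drive mitosis also differed in size and sign. Aurkb, the kinase of the chromosomal passenger complex, had 18.8, 12.6 and 12.7 normalized counts in shYthdf2 and 10.6, 5.80 and 7.67 in shCtrl, without overlap (log2 fold change 0.85, SE 0.40, adjusted p = 0.282). Birc5, the survivin subunit of the same complex, had 16.7, 14.5 and 19.1 against 3.54, 18.4 and 4.38, so that 2 shCtrl libraries were low and shCtrl replicate 2 was not (log2 fold change 0.92, SE 0.61, adjusted p = 0.445). Aurka, the spindle pole kinase, had a log2 fold change of 0.14, the mitotic kinase Cdk1 of 0.46 and Plk1 of −0.34, the lowest of the class, and all overlapped. Ccnb2 had 67.8, 48.3 and 61.4 against 63.7, 59.9 and 62.5, a log2 fold change of −0.07 (SE 0.23), and Ccna2, an A-type cyclin, one of 0.11. Ccnb1 had 9, 12 and 6 raw counts in shYthdf2 and 3, 13 and 4 in shCtrl and was not tested.

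**Figure D4:**
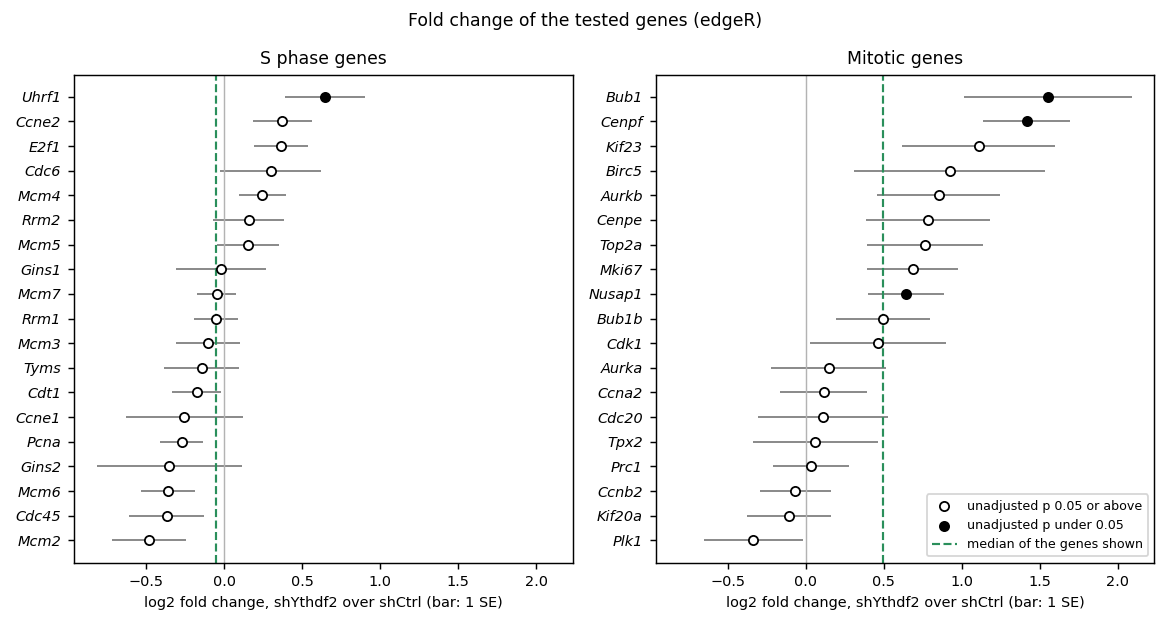
log2 fold change of shYthdf2 over shCtrl for the 19 S phase and 19 mitotic genes tested by edgeR, with bars of 1 SE, filled points for an unadjusted p under 0.05 and a dashed line at the median of each class, −0.05 and 0.49. The S phase genes spread about 0 from −0.48 to 0.65, and the mitotic genes run from −0.34 to 1.55.

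Summed over a library, the mitotic class was higher in shYthdf2 and the S phase class was not. The 21 mitotic genes together had 1169, 1021 and 1231 normalized counts in shYthdf2 replicates 1, 2 and 4 and 750, 841 and 740 in shCtrl, without overlap. Cenpf made up much of this gap, and the other 20 summed to 803, 809 and 826 against 649, 689 and 625, still without overlap; Cenpf was left out after its values were seen. The 19 S phase genes summed to 4490, 5041 and 4587 against 4529, 5336 and 4474, which overlapped, with replicate 2 the highest library in each group. Within replicates 1, 2 and 4, the median log2 ratio of the tested mitotic genes was 0.66, 0.22 and 0.56, and that of the S phase genes −0.01, 0.02 and 0.14. The mitotic medians include Bub1, Aurkb, Cenpe and Birc5, which shYthdf2 libraries carried past the filter, so they are not free of this effect. Over these genes the mitotic median was smaller within replicate 2 than within the others. The 0.66 of replicate 1 was the value of Cenpe, so this order rests in part on such genes. A sum that does not overlap was not particular to the mitotic class, since the 7 GABAergic interneuron markers summed to 9125, 10820 and 9110 against 7581, 8447 and 7551.

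Because both replicate 2 libraries stood apart, the classes were also counted without them. With both left out, 8 S phase genes (3 higher) and 6 mitotic genes (all higher) passed, where 52.7% of all genes tested did, so that the share called was below the background in both classes. The S phase genes were Mcm2, Mcm6, Cdt1, Pcna and Gins2, which were lower, and Ccne2, E2f1 and Uhrf1, and the 6 mitotic genes were Mki67, Top2a, Bub1, Kif23, Cenpf and Birc5. Without shCtrl replicate 2 alone, 2 S phase genes, E2f1 and Uhrf1, and 3 mitotic genes, Top2a, Cenpf and Birc5, passed and were higher, where 18.3% of all genes passed. Without shYthdf2 replicate 2 alone, 0 S phase genes and Cenpf passed, where 4.7% of all genes did. A batch term for replicate 2 gave 3 S phase genes, Pcna lower and E2f1 and Uhrf1 higher, and 2 mitotic genes, Mki67 and Cenpf, against 22.1% of all genes. With no filter on low counts, 0 S phase genes and Cenpf passed, against 1.98%.

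Markers of other cell types moved with the groups in part. Oligodendrocyte precursors and microglia are cell types that can themselves divide in the young brain. The 6 oligodendrocyte precursor markers, none at 0, summed to 4129, 3186 and 4351 normalized counts in shYthdf2 and 1192, 5153 and 1258 in shCtrl. Replicates 1 and 4 of shCtrl were thus low and shCtrl replicate 2 was the highest of all. All 6 had a positive log2 fold change (median 0.65), with Pdgfra at 0.77 and Cspg4 at 0.71. The 10 microglia markers summed to 546 to 1629 in shYthdf2 and 257 to 1132 in shCtrl, with up to 2 of them at 0 in a shCtrl library, and the 8 tested were all higher (median 1.17, C1qa 1.47, Tmem119 1.67). The 6 oligodendrocyte markers summed to 13226 to 18687 and 4948 to 17595 (median 0.62, Mog 0.67, none at 0), and the 12 astrocyte and Bergmann glia markers to 13967 to 14944 and 9579 to 16462 (median 0.29, Aqp4 0.87, Slc1a2 −1.44, none at 0). The 12 vascular and fibroblast markers were highest in the replicate 2 libraries, at 11629 in shYthdf2 and 9213 in shCtrl against 3208 to 4631 in the other 4 (median 0.48, Kdr 0.82, Lum 1.13, at most 1 at 0). Of these 5 lists, edgeR and limma-voom called 0 genes, DESeq2 called 2 astrocyte and 1 vascular gene, and at an unadjusted p under 0.05 edgeR had 3 of their genes higher and 1 lower. The genes tested were 6 precursor, 8 microglia, 6 oligodendrocyte, 12 astrocyte and 11 vascular markers. Over all genes tested, DESeq2 called 7.67%, and edgeR had 9.5% higher and 10.6% lower at an unadjusted p under 0.05. The part of these cells in the mitotic result was not tested.

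**Figure D5:**
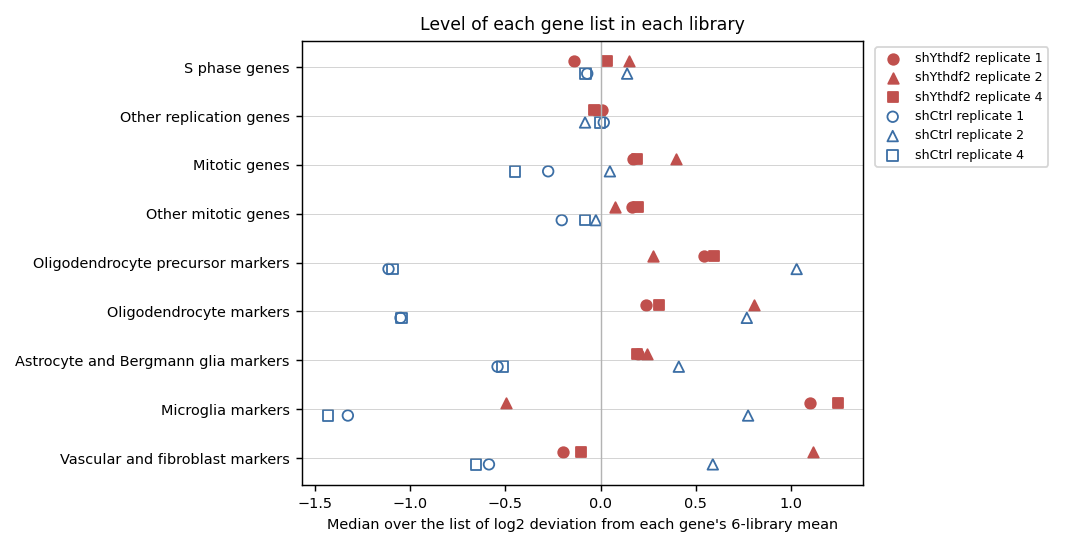
Median over each gene list of the log2 deviation from the mean of the 6 libraries, one symbol per library, with shYthdf2 in filled red and shCtrl in open blue. The mitotic genes lie at 0.17 to 0.40 in shYthdf2 and −0.45 to 0.05 in shCtrl, the S phase genes overlap around 0, and the oligodendrocyte precursor markers are at −1.11 and −1.09 in shCtrl replicates 1 and 4 and at 1.03 in shCtrl replicate 2.

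The wider replication and mitosis machinery, on lists that leave out the 40 genes, also had a median near 0 for replication and above 0 for mitosis. Of 45 other replication genes, 43 were tested, 0 passed in edgeR, 1 in DESeq2 and 0 in limma-voom, 2 were higher and 3 lower at an unadjusted p under 0.05, against 9.5% and 10.6% of all genes, and the median log2 fold change was −0.01. Mcm10, which links the helicase to polymerase alpha, had 319, 180 and 312 normalized counts in shYthdf2 and 141, 148 and 131 in shCtrl, without overlap (log2 fold change 0.95, SE 0.24, adjusted p = 0.102), and Chaf1b, a histone chaperone subunit at the fork, had 25.0, 27.1 and 19.1 against 51.3, 34.8 and 60.3 (−1.03, SE 0.31, adjusted p = 0.137). Of 52 other mitotic genes, 38 were tested, 0 passed in edgeR, 1 in DESeq2 (Anln) and 0 in limma-voom, 7 were higher and 0 lower at an unadjusted p under 0.05, and the median was 0.21, against 9.5% higher and 10.6% lower over all genes. One of the 7, Pbk, reached the filter in the shYthdf2 libraries alone, and the 37 others had a median of 0.20. Of these 37, Nuf2, another of the 7, had 11, 10 and 10 raw counts in shCtrl, and Ncapg 8, 7 and 10. Their shYthdf2 libraries carried them past the filter, so neither the 7 nor the median of 0.20 is free of this effect. Summed over a library, the 52 genes overlapped, at 6215, 5682 and 6173 in shYthdf2 against 5936, 6038 and 6229 in shCtrl. Anln, an actin-binding protein of the cleavage furrow that myelinating cells express as well, had 67.8, 84.1 and 76.2 against 26.5, 41.5 and 37.3 (log2 fold change 1.12, SE 0.26, adjusted p = 0.0872), and the condensin subunit Smc4 had 337, 279 and 328 against 206, 210 and 249 (0.51, SE 0.15, adjusted p = 0.136).

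Upstream of S phase, the genes of the G1 decision included Ccnd3 and Myc, each lower without overlap but not past the test in edgeR. Of 34 G1 and CDK regulators, 32 were tested, 0 passed in edgeR, 5 in DESeq2 and 0 in limma-voom, 2 were higher and 7 lower at an unadjusted p under 0.05, and the median log2 fold change was −0.08. The 5 are 15.6% of the list, against 7.67% of all genes in DESeq2, and the 2 and 7 stand against 9.5% and 10.6% of all genes in edgeR. The D-type cyclin Ccnd3 had 214, 290 and 237 normalized counts in shYthdf2 and 417, 445 and 474 in shCtrl (log2 fold change −0.85, SE 0.15, adjusted p = 0.0572). The growth factor target Myc had 166, 173 and 171 against 486, 269 and 513 (−1.31, SE 0.25, adjusted p = 0.0594). Cdkn1a, the CDK inhibitor p21, was named after its values were seen: 1410, 2982 and 1460 against 6013, 4059 and 6188, the groups separate and replicate 2 the closest pair (−1.47, SE 0.32, adjusted p = 0.0749). The list was mixed in sign, with Mycn at 0.37, E2f2 at 0.31, Ccnd2 at 0.19 and Ccnd1 at 0.15, and E2f3, an E2F factor, was at 918 to 931 against 649 to 677 (0.48, SE 0.09, adjusted p = 0.062), these 5 also being named after their values were seen.

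Markers of the granule lineage had medians near 0 as lists. The counts in this paragraph stand against 7.67% of all genes called in DESeq2. At an unadjusted p under 0.05 in edgeR, 9.5% of all genes tested were higher and 10.6% lower. Of 10 markers of granule progenitors, the dividing precursors, 9 were tested, 0 passed in edgeR, 2 in DESeq2 and 0 in limma-voom, 1 was higher and 2 lower at an unadjusted p under 0.05, and the median log2 fold change was −0.05, with 4 above 0 and 5 below. Barhl1 was at −0.61 and Sfrp1 at −0.40, while Atoh1, the transcription factor that defines dividing progenitors, was at 0.78 without overlap (SE 0.34, adjusted p = 0.255) and Hhip and Gli2 were at 0.74 and 0.71, these 3 being named after their values were seen. All 18 postmitotic granule cell markers were tested, 0 passed in edgeR, 2 in DESeq2 and 0 in limma-voom, 0 were higher and 4 lower at an unadjusted p under 0.05, and the median was 0.05, with 10 above 0 and 8 below. Neurod1 was at −0.32 and Cbln1 at −0.64, while Cbln3 was at 0.81 (SE 0.75), Calb2 at 0.61 (SE 0.28) and Reln at 0.27 without overlap (SE 0.13), again named afterwards. Of other neurons, the Purkinje cell list had a median of −0.01 (5 of 6 tested, Calb1 −0.45) and the GABAergic interneuron list of 0.12 (7 of 7 tested, Gad1 0.49, Gad2 0.44), with 0 of either past the test in edgeR or limma-voom, 1 of each in DESeq2 and 1 of each higher at an unadjusted p under 0.05.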

How the data were processed

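RNA was extracted with Trizol; the labels name an Illumina TruSeq kit for the libraries and the study's methods a NEBNext Ultra kit. The authors counted reads per gene with HTSeq and deposited 1 table of raw counts, 1 column per library, which the study describes as biological replicates; its account gives GRCm38 with HISAT and TopHat2, while the submitters' processing notes list Bowtie 0.12.2 and mm9. Gene identifiers were matched to GENCODE vM21 (GRCm38), and 785 rows for transcribed regions outside the annotation were kept in the tests, unnamed. The strand setting is not given in the sources used here, and 10 of the 40 genes share exon bases with a gene on the other strand. All value columns were used.

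Counts were filtered with filterByExpr of edgeR 4.0.16 (R 4.3.3, minimum count 10, minimum total 15), scaled by TMM and tested with the quasi-likelihood test, shYthdf2 against shCtrl, over 17214 genes with Benjamini-Hochberg adjustment at 0.05. Log2 ratios within replicates add 0.5. DESeq2 1.42.0 and limma-voom (limma 3.58.1) were alternatives, beside RLE scaling, no factor, other filters, a replicate block, a batch term for replicate 2 and leaving out libraries. The fits were tested on simulated data. Replicates 1, 2 and 4 were paired by number, as in the library names. Deviations of same-numbered libraries from their group means correlated at 0.25, 0.361 and 0.305. Libraries of unlike number were not compared between the groups, and both replicate 2 libraries stood apart. These values therefore cannot show that replicate 1 pairs with 1 and 4 with 4. Values per library were given for Mki67, Pcna, Top2a, Ccnb1, E2f1 and Mcm2, for members passing the test, and for the 5 with the smallest p and the 2 with the highest level per kilobase in each class. From other lists the 2 with the smallest p and up to 5 passing were named, those of the marker lists by log2 fold change alone. Other named genes were chosen after their values were seen. Of the genes this rule picks from the marker lists, 2 are not reported here. The 40 genes and all lists were chosen with earlier results of these data known. Figures were drawn with matplotlib 3.10.9.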

Additional observations from a re-analysis of the deposited data

How the results depend on the processing

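Counts of genes past an adjusted p under 0.05, which were 0 in edgeR for all 7 lists, are given in the order S phase, mitotic, other replication, other mitotic, G1 and CDK, granule progenitor and postmitotic granule genes; for the last 5 lists the alternatives were chosen after seeing the data. The lists had 19, 19, 43, 38, 32, 9 and 18 genes tested in edgeR. A batch term for replicate 2 gave 3, 2, 7, 5, 11, 3 and 10, or 10.5% to 55.6% of a list, against 22.1% of all genes. Leaving out both replicate 2 libraries gave 8, 6, 19, 16, 18, 6 and 15, or 31.6% to 83.3%, against 52.7% of all genes, and the cause was not tested. DESeq2 gave 0, 1, 1, 1, 5, 2 and 2, against 7.67% of all genes, and no filter on low counts gave 1 mitotic, 4 G1 and CDK and 1 progenitor gene and 0 of the others. Leaving out 1 library at a time gave 0 to 2, 0 to 3, 0 to 4, 0 to 4, 0 to 9, 0 to 5 and 0 to 6. Every count above 0 came from leaving out shCtrl replicate 2, where 18.3% of all genes passed, or shYthdf2 replicate 2, where 4.7% did. Leaving out any other library called 0 of all genes tested, so the lists could hold none. RLE scaling, no scaling factor, limma-voom and a minimum of 10 counts in every library gave 0 throughout, and so did the replicate block, which changed no call on these lists. These fits called few genes anywhere: 105 with RLE scaling, 108 with no factor and 24 with limma-voom, of 17214 tested. The minimum of 10 counts called 131 of 15197, and the replicate block 232 of 17214. The median log2 fold change of the mitotic genes was 0.49, and 0.33 to 0.64 with 1 library left out, over 19 or 20 genes tested. It was 0.14 with at least 10 counts in every library, where 14 genes were left to test. That of the S phase genes was −0.12 to 0.04 with 1 library left out. Alternatives were run one by one for 13 members, and of these Ccnb2 and Prc1, both near 0, changed sign: Ccnb2 to 0.029 without both replicate 2 libraries, and −0.18 to 0.057 with 1 library left out (0.057 without shYthdf2 replicate 2), and Prc1 to −0.12 without shCtrl replicate 2 and −0.0073 and −0.13 without shYthdf2 replicates 1 and 4, in a range of −0.13 to 0.21. The median SE of the log2 fold change was 0.37 for the mitotic genes, most of which had under 100 counts in a library, 0.20 for the S phase genes and 0.21 for all genes tested.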
